A study of Homo sapiens with 12 samples.

Results

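Aminoacyl tRNA synthetases are the enzymes that join each amino acid to its transfer RNA, and 36 of their genes were examined here in IMR32 cells. The members were taken by symbol from the deposited expression table, and 36 of 36 were found among its 27514 genes. They comprise 20 genes of the cytosolic enzymes and 16 genes of the mitochondrial enzymes, whose symbols end in 2. The split is by symbol, so any gene that serves both compartments is counted as cytosolic throughout. The table uses older symbols, so that IARS, for example, is the gene now called IARS1.

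IMR32 is an established human neuroblastoma cell line with amplified MYCN, a MYC family transcription factor gene, and all samples come from this single line. The cells grew in RPMI-1640 with fetal calf serum, and siRNAs were introduced by Nucleofector electroporation 72 h before RNA was extracted. Each of the 4 groups held 3 samples, treated with a control siRNA (siCtrl), with 1 siRNA to MYCN (labelled siMYCN_2), with 1 to HAND2 (labelled siHAND2_3), or with both (labelled siM2+siH2_3, here the combined knockdown). HAND2 is a transcription factor of the sympathetic lineage. A single siRNA per target is named in the labels, so effects of a target and of its siRNA cannot be told apart. The labels do not say whether the 3 samples of a group were separate cultures, so p-values measure the spread between these samples, which may be technical.

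Each synthetase recognises its amino acid and its tRNA and feeds the ribosome with charged tRNA. In the cytosol 8 of these enzymes sit with the scaffold proteins AIMP1, AIMP2 and EEF1E1 in the multisynthetase complex, while a mostly separate set, encoded in the nucleus, is imported into mitochondria to translate the mitochondrial genome. MYC proteins are known to drive genes of protein synthesis through the E-box element, and ATF4, the transcription factor of the amino acid response, is known to raise many cytosolic synthetase genes through an element called CARE.

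Expression is given in CPM, the reads of a gene scaled to all reads of its library. Depth estimated from the smallest CPM step was 31.6 to 64.2 M reads, and the lowest member of any sample rested on 186 to 567 reads, so counting error was small for every member. The share of reads in the listed genes was 65.1% ± 0.736 (SD, n = 3) in the controls, 62.4% ± 0.979 after siMYCN, 59.4% ± 2.39 after siHAND2 and 51.4% ± 7.04 with both siRNAs. A lower share can lower the deposited values together. Results are therefore given on the deposited scale and after dividing each sample by its median ratio to the other samples, called rescaled below. The median log2 fold change of all 12680 tested genes was 0.006 for siMYCN, -0.14 for siHAND2 and -0.28 with both, each against siCtrl, and 0.01, 0.01 and 0.05 on the rescaled values. MYCN stood at 67.5% of its siCtrl mean in siMYCN and at 47.7% in the combined knockdown. HAND2 stood at 26.0% in siHAND2 and at 30.7% in the combined knockdown. Each single knockdown also had a value for the other target: HAND2 stood at 136% in siMYCN, and MYCN at 84.1% in siHAND2, where its samples lay below siCtrl without being called (log2 change -0.25, limma adjusted p = 0.086) and overlapped with siCtrl after rescaling. Of 9 sympathetic neuroblastoma markers 8 reached 1 CPM and TH, which makes the first enzyme of catecholamine synthesis, did not. Of 5 fibroblast and 4 immune markers, 1 (COL1A1) and 0 reached 1 CPM.

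In control cells the cytosolic synthetase transcripts were mostly the more abundant ones. Per kilobase of canonical transcript, the cytosolic members had a median level of 40.5 CPM (range 8.43 to 104.6) and the mitochondrial members 8.74 CPM (range 4.67 to 37.1). SARS, the seryl enzyme, was highest at 104.6 ± 4.14 CPM per kb (SD, n = 3). IARS, the isoleucyl enzyme, followed at 90.9 ± 1.80 and TARS, the threonyl enzyme, at 81.7 ± 1.61. The lowest cytosolic member was FARSB at 8.43 ± 0.191 CPM per kb, which encodes the beta subunit of phenylalanyl-tRNA synthetase, although its partner FARSA, the alpha subunit, stood at 39.3 ± 1.04. Both values use 1 canonical transcript per gene, and that of FARSB is 6761 nt long against 1811 nt for FARSA. The highest mitochondrial member was IARS2 at 37.1 ± 0.299, and the lowest of all was PARS2, the mitochondrial prolyl enzyme, at 4.67 ± 0.413. The ranges overlapped: 8 mitochondrial members lay above the lowest cytosolic one. Neighbours in this order often did not differ beyond their SD, as with IARS2 and RARS (37.9 ± 1.71), the cytosolic arginyl enzyme.

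**Figure D1:**
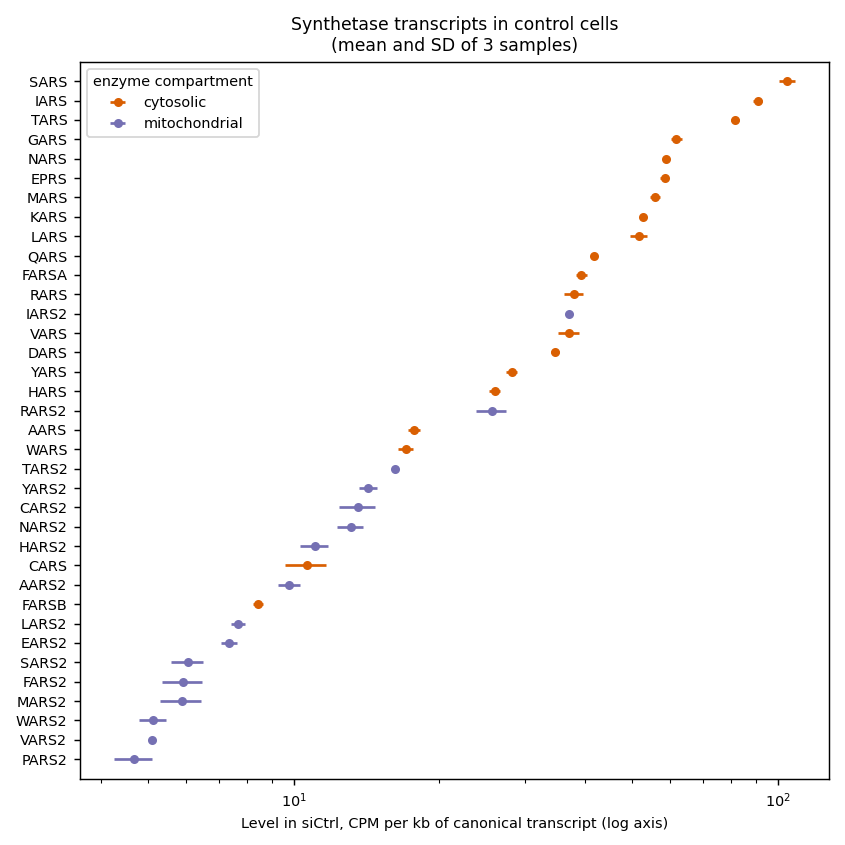
Level of each synthetase transcript in siCtrl, as CPM per kb of canonical transcript on a log axis, with points for the mean and bars for the SD of 3 samples, coloured by compartment. Cytosolic members fill the upper end, led by SARS at 104.6, while IARS2 at 37.1 is the highest mitochondrial member.

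Promoter sequences were examined because MYC proteins and the amino acid response act through short elements. No element for HAND2 was searched. RefSeq windows (GRCh38.p14) from 250 bases before to 50 bases after the start site were matched for 30 of the 36 members, 9 of them with more than 1 start site. AARS2, DARS, LARS, VARS, VARS2 and YARS were not matched. The E-box CACGTG, which reads the same on both strands, was found in 4 of the 30 members (13.3%) and in 8.77% of 27305 genes with a window. The CARE letters TGATGNAA, or TTNCATCA on the other strand, were found in 8 of 30 members (26.7%) and in 4.46% of all genes. Among 12 cytosolic members known as ATF4 targets 10 had a window, and 7 of these held CARE, against 0 of the 6 other cytosolic members and 1 of the 14 mitochondrial members. These are letter matches, not measured binding sites, and the motif search was chosen after expression values had been seen. The CARE matches outside IARS are printed with 11 bases on each side and the motif in capitals, 5′ to 3′ on the strand of the gene:
AARS, chr16:70289675-70289704, minus strand: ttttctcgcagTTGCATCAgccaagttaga
CARS, chr11:3057407-3057436, minus strand: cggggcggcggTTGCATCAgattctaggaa
GARS, chr7:30594834-30594863, plus strand: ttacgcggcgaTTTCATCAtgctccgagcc
MARS, chr12:57488053-57488082, plus strand: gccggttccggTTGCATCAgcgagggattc
NARS, chr18:57621804-57621833, minus strand: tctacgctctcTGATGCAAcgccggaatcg
TARS, chr5:33440956-33440985, plus strand: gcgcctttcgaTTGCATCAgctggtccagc
YARS2, chr12:32756076-32756105, minus strand: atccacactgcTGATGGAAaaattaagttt

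The same 8 letters TTGCATCA stand in AARS, CARS, MARS, TARS and IARS. In CARS, MARS and TARS they begin within 4 bases of the start site, and in AARS they begin 187 bases before it. The E-box matches of CARS2 and MARS2, beginning 3 and 11 bases before the start, are shown in the same way:
CARS2, chr13:110706502-110706529, minus strand: gctgggatgcaCACGTGcttcgctaaca
MARS2, chr2:197705347-197705374, plus strand: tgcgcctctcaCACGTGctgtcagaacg

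The 250 bases before the start are given for IARS, the only member with both elements, and for EARS2, the mitochondrial glutamyl enzyme, because both are among the 4 largest falls of siMYCN and of the combined knockdown. In IARS the E-box begins 186 bases and the CARE letters 13 bases before the start, and they do not overlap. In EARS2 the E-box begins 15 bases before the start:
IARS, chr9:92293698-92293947, minus strand: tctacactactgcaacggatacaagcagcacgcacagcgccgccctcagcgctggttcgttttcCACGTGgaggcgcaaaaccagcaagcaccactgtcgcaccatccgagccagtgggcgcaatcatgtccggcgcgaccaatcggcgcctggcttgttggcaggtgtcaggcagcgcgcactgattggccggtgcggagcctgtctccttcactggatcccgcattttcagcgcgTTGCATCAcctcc
EARS2, chr16:23557351-23557600, minus strand: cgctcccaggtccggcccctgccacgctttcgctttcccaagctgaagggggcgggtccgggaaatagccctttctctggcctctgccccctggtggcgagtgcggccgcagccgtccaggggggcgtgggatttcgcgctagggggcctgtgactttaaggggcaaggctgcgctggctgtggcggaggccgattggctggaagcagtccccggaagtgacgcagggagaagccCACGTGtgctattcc

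The first comparison asks which synthetase genes depended on MYCN. In siMYCN 13 of 36 members fell, 7 cytosolic and 6 mitochondrial, and 0 rose (limma on log2(CPM + 1), Benjamini-Hochberg adjusted p under 0.05, termed called). Of all tested genes 16.3% were called lower. The 13 were EARS2, IARS, FARSB, SARS2, VARS, LARS, MARS2, NARS2, DARS, YARS, NARS, YARS2 and WARS2, from -0.75 for EARS2 to -0.32 for WARS2 on the log2 scale. With each of the 6 libraries of these groups left out in turn, NARS and YARS were called in 0 of 6 fits, YARS2 in 1, WARS2 in 2 and NARS2 in 5, and the other 8 in all 6. These fits share 1 spread per gene over all 4 groups, so the combined samples also enter the p-values. On the rescaled values NARS, YARS, YARS2, WARS2 and NARS2 were called in 6 of 6 fits. Of the rescaled calls, AARS2, CARS2 and KARS were lost at least once. After rescaling 24 members were called lower and 0 higher, against 22.5% of all genes called lower. The median over the 36 members was -0.24, or -0.23 after rescaling. Without regard to a test, all 3 siMYCN samples lay below all 3 siCtrl samples in 29 members, as in 29.6% of tested genes, and the groups overlapped in AARS, CARS, FARS2, HARS, HARS2, RARS2 and SARS.

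The next comparison asks the same for HAND2. In siHAND2 15 of 36 members fell, 6 cytosolic and 9 mitochondrial, and 0 rose, against 30.4% of tested genes called lower. They ranged from -0.51 for FARSB to -0.32 for FARS2. After rescaling 13 members were called lower, against 24.9% of genes, and 1 higher (HARS, the histidyl enzyme, log2 change 0.21, SE 0.051, limma adjusted p = 0.00408), against 25.9% called higher. The median over the members was -0.25, or -0.10 after rescaling. The cytosolic median was then -0.03 and the mitochondrial median -0.18. In 27 members all siHAND2 samples lay below all siCtrl samples on the deposited scale, against 45.0% of tested genes. After rescaling 16 members lay wholly below siCtrl, 4 wholly above and 16 overlapped. The share of all tested genes was not computed for these rescaled counts, so they have no background.

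In the combined knockdown 32 of 36 members fell and 0 rose, against 50.1% of tested genes called lower. That background was 54.7% among genes averaging 5 CPM or more, a level that every member exceeds (the lowest mean was 8.25 CPM). The median member changed by -0.74 on the log2 scale, with a cytosolic median of -0.73 and a mitochondrial median of -0.81. The members not called were CARS (-0.02), SARS (-0.06), HARS (-0.21) and HARS2 (-0.28), and these 4 were also the members whose samples overlapped with siCtrl. The other 32 had all 3 combined samples below all 3 siCtrl samples, as had 48.3% of tested genes. After rescaling 29 members were called lower, against 33.0% of genes, and 3 higher (CARS, SARS and HARS), against 37.7% called higher, with a median of -0.39. AARS, FARS2, HARS2 and RARS2 were then not called, with -0.13, -0.20, 0.07 and -0.02.

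**Figure D2:**
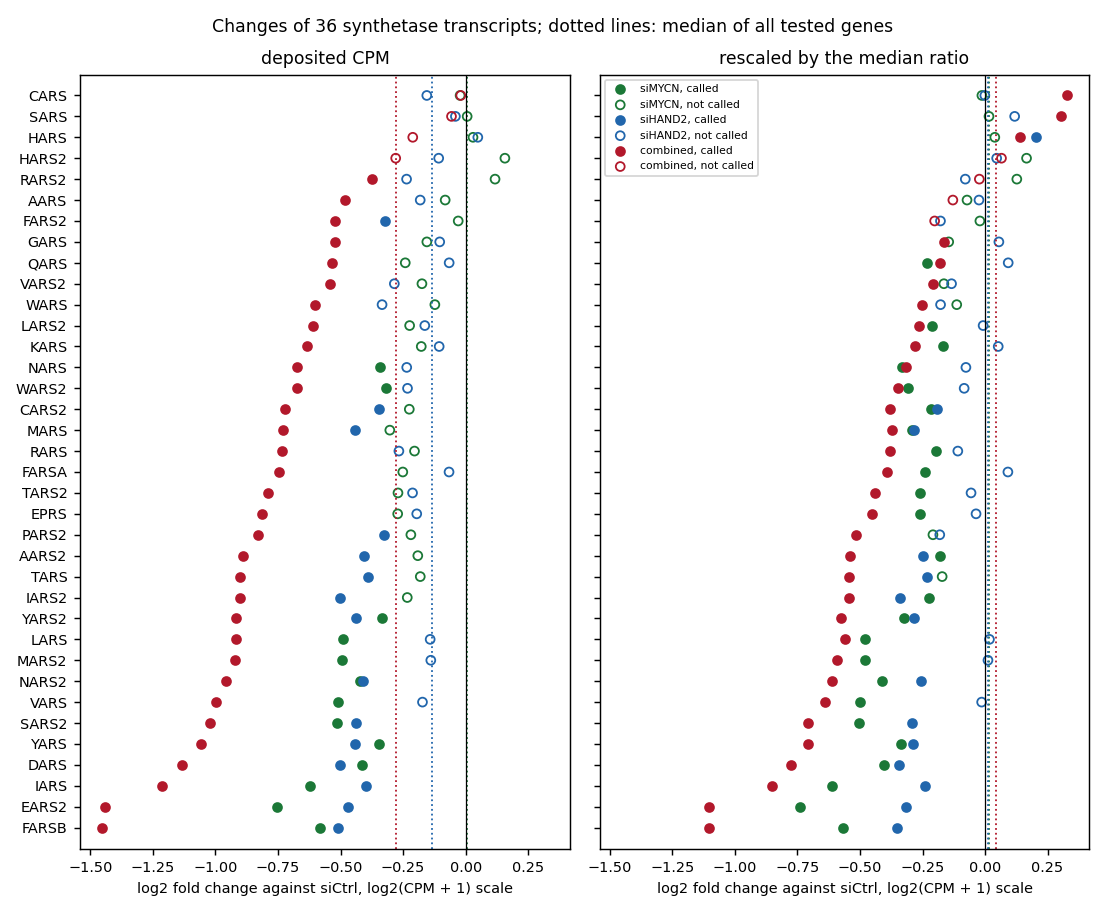
Log2 fold change of the 36 synthetase transcripts against siCtrl on the deposited scale (left) and after rescaling (right), with filled points for called and open points for uncalled changes and dotted lines for the median of all tested genes. FARSB and EARS2 lie lowest in the combined knockdown at -1.45 and -1.44, and CARS and SARS turn from near 0 to 0.33 and 0.30 after rescaling.

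As a share of the reads in listed genes, which does not depend on the reads outside them, the 36 transcripts together made up 0.508% ± 0.00387 (SD, n = 3) in siCtrl. The share was 0.432% ± 0.00622 after siMYCN, 0.465% ± 0.0102 after siHAND2 and 0.381% ± 0.0329 with both siRNAs. Combined replicates 1, 2 and 3 had 0.415%, 0.380% and 0.349%, while 58.4%, 51.4% and 44.3% of their reads lay in listed genes. The 3 combined samples thus differ from each other on both measures, and the part of this spread in the results was not tested beyond the values without each sample. In bulk RNA, fewer cells of a kind and less RNA per cell cannot be told apart. The summed level of the 9 neuroblastoma markers, MYCN and HAND2 included, also moved, from 1605 to 1710 CPM in siCtrl to 864 to 1189 CPM in the combined knockdown, and that of the 5 fibroblast markers from 7.20 to 9.14 CPM to between 0.975 and 1.28 CPM. The part of these in the results was not tested.

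EARS2, which charges mitochondrial tRNA with glutamate, had the largest fall in siMYCN. It measured 38.5, 39.5 and 36.7 CPM in siCtrl, 22.2, 22.7 and 21.98 in siMYCN, 27.4, 29.6 and 25.1 in siHAND2, and 16.4, 13.4 and 10.99 in the combined knockdown. The 4 groups did not overlap, with siCtrl highest and the combined knockdown lowest. The log2 change was -0.75 (SE 0.120, limma adjusted p = 2.79e-05) in siMYCN, -0.47 (adjusted p = 0.00264) in siHAND2 and -1.44 (adjusted p = 9.5e-11) in the combined knockdown, where 35.6% of the siCtrl mean was left. The gene lies at chr16:23533334-23568697 on the minus strand (hg19, as all gene positions below).

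FARSB had the largest fall of the combined knockdown and of siHAND2. Its values were 58.3, 57.1 and 55.7 CPM in siCtrl, 37.5, 38.0 and 37.9 in siMYCN, 42.6, 40.3 and 36.5 in siHAND2, and 23.5, 19.8 and 17.7 in the combined knockdown. The single knockdowns overlapped with each other, and the combined samples lay below every other sample. The change was -0.58 (SE 0.113, limma adjusted p = 0.00027) in siMYCN, -0.51 (adjusted p = 0.000693) in siHAND2 and -1.45 (adjusted p = 2.5e-11) in the combined knockdown, and -1.10 there after rescaling. FARSA, whose product pairs with that of FARSB in a tetramer of 2 alpha and 2 beta subunits, stood at 71.2 ± 1.89 CPM (SD, n = 3) in siCtrl and at 42.7 ± 9.31 in the combined knockdown (-0.75, limma adjusted p = 1.18e-05). In siMYCN and siHAND2 its changes of -0.25 and -0.07 were not called. FARSB lies at chr2:223436162-223521075 and FARSA at chr19:13033284-13044559, both on the minus strand.

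The ratio of FARSB to FARSA within a sample is free of any scaling. It was 0.840, 0.804 and 0.761 in siCtrl, 0.613, 0.657 and 0.633 in siMYCN, 0.609, 0.565 and 0.581 in siHAND2, and 0.451, 0.466 and 0.530 in the combined knockdown. The siCtrl values were higher than all values of the 3 knockdowns, with an exact two-sided permutation p of 0.1 in each knockdown, the smallest that 3 against 3 samples allow. This ratio and those below were chosen after the values had been seen.

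IARS, a member of the multisynthetase complex with the second highest level per kb, lost more CPM than any other member. It measured 416, 399.7 and 408 CPM in siCtrl, 258, 278 and 258 in siMYCN, 313, 324 and 290.5 in siHAND2, and 215, 178 and 141 in the combined knockdown. The 4 groups did not overlap and siMYCN lay below siHAND2. The change was -0.62 (SE 0.127, limma adjusted p = 0.000471) in siMYCN, -0.40 (adjusted p = 0.0136) in siHAND2 and -1.21 (adjusted p = 6.52e-09) in the combined knockdown, and -0.61, -0.24 and -0.85 after rescaling, each called. The siHAND2 call on the deposited scale was lost without siCtrl replicate 1 (-0.39, adjusted p = 0.0503) and without siHAND2 replicate 3 (-0.36, adjusted p = 0.0619), and the rescaled call was kept. IARS lies at chr9:94972490-95056039 on the minus strand and hosts SNORA84 and MIR3651 on the same strand.

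DARS, the aspartyl enzyme and also a complex member, measured 108, 105 and 109 CPM in siCtrl and 78.0, 83.6 and 79.6 in siMYCN. It measured 73.8, 79.3 and 73.7 CPM in siHAND2 and 57.5, 47.4 and 41.7 in the combined knockdown. The single knockdowns overlapped with each other and lay between the other groups. Its changes in these 3 groups were -0.41, -0.50 and -1.13 (limma adjusted p = 0.00724, 0.00107 and 3.89e-09). DARS lies at chr2:136663451-136743255 on the minus strand, and 510 bases overlap DARS-AS1 on the other strand.

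SARS2, the mitochondrial seryl enzyme, is a low member at 12.6, 11.1 and 11.1 CPM in siCtrl. It measured 8.18, 6.89 and 8.42 CPM in siMYCN, 7.79, 9.39 and 7.76 in siHAND2 and 6.05, 5.13 and 4.53 in the combined knockdown. All knockdown samples lay below siCtrl, and the combined samples below all others. The changes were -0.52, -0.44 and -1.02 (limma adjusted p = 0.0015, 0.00426 and 3.94e-08). SARS2 lies at chr19:39405904-39421537 on the minus strand and shares 190 bases with MRPS12 on the other strand, whose reads cannot be separated from it without strand.

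IARS2, the mitochondrial isoleucyl enzyme, was among the 4 largest falls in siHAND2. It measured 132, 131 and 129.7 CPM in siCtrl, 111, 113 and 109 in siMYCN, 96.6, 94.0 and 86.4 in siHAND2, and 88.4, 69.4 and 55.0 in the combined knockdown. The siHAND2 samples lay below the siMYCN samples and overlapped with the combined samples. Its change was -0.23 in siMYCN (limma adjusted p = 0.173), -0.50 in siHAND2 (adjusted p = 0.00299) and -0.90 in the combined knockdown (adjusted p = 1.11e-06). Rescaled, the siMYCN change of -0.22 was called (adjusted p = 0.00551). IARS2 lies at chr1:220267455-220321384 on the plus strand.

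**Figure D3:**
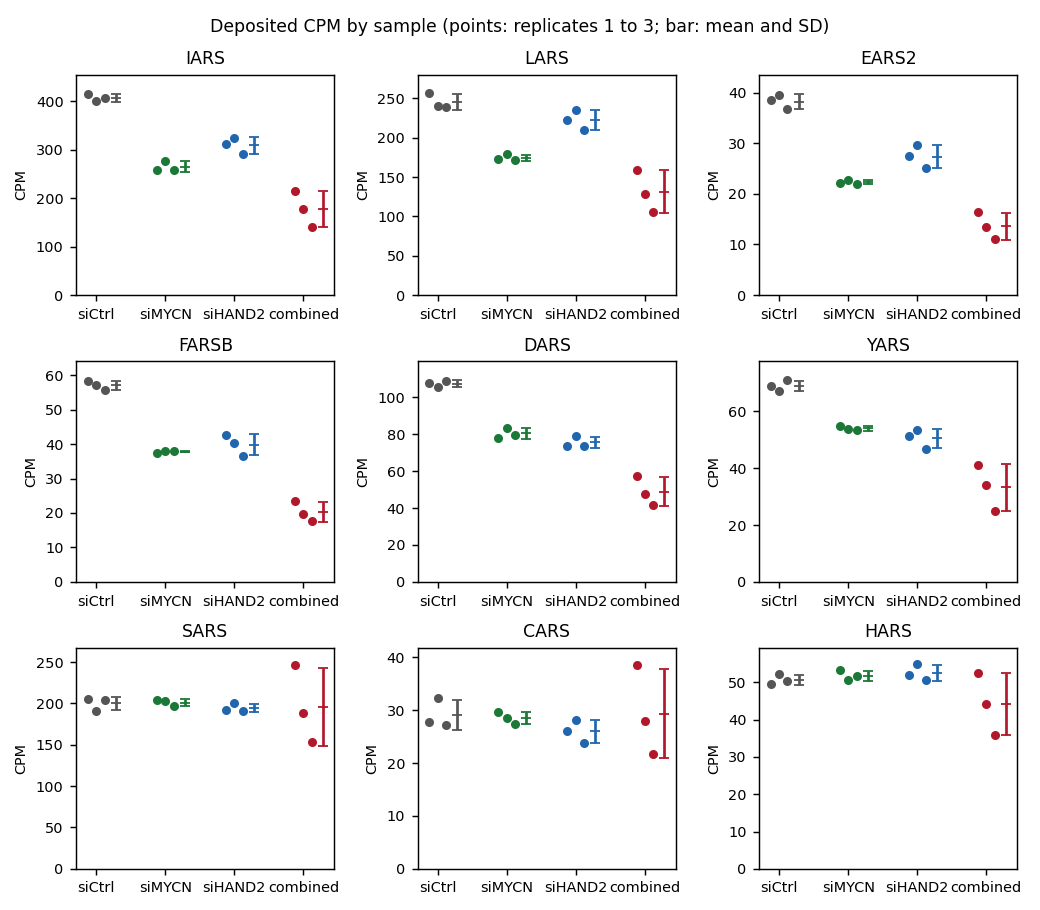
Deposited CPM of 9 synthetase transcripts in each sample, with 1 panel per gene and points for replicates 1 to 3 from left to right beside a bar for the mean and SD. EARS2, IARS and FARSB fall in every knockdown, whereas SARS, CARS and HARS in the combined knockdown spread over the siCtrl values, SARS from 154 to 247 CPM.

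SARS, CARS and HARS, 3 cytosolic members singled out after their values had been seen, went with the scaling. SARS measured 205, 191 and 204 CPM in siCtrl and 247, 188 and 154 in the combined knockdown, which overlap, and its change of -0.06 was not called (limma adjusted p = 0.715). Rescaled, the values were 186, 173 and 188 in siCtrl and 249, 217 and 211 in the combined knockdown, which do not overlap, and the change was 0.30 (SE 0.064, adjusted p = 0.000651). CARS, the cysteinyl enzyme, showed 27.7, 32.4 and 27.2 CPM in siCtrl and 38.5, 27.9 and 21.7 in the combined knockdown, with a change of -0.02 that became 0.33 (SE 0.089, adjusted p = 0.00441) on rescaling. The rise of both therefore holds relative to the median gene and not in CPM of all reads. HARS changed by -0.21, and by 0.14 (adjusted p = 0.0234) after rescaling, a call lost without siCtrl replicate 1 (adjusted p = 0.0894) or combined replicate 1 (adjusted p = 0.0714). HARS and HARS2 overlap by 303 bases on opposite strands, so that part of their reads cannot be told apart without strand.

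The ratio of SARS to IARS, unaffected by scaling and taken because the 2 genes had changed unequally, is a description. It was 0.494, 0.478 and 0.502 in siCtrl, 0.790, 0.729 and 0.763 in siMYCN, 0.616, 0.619 and 0.656 in siHAND2, and 1.15, 1.05 and 1.09 in the combined knockdown. All knockdown samples lay above siCtrl. The ratio of HARS to HARS2 was 1.86 ± 0.122 (SD, n = 3) for siCtrl, 1.70 ± 0.0484 for siMYCN, 2.08 ± 0.0215 for siHAND2 and 1.97 ± 0.144 with both siRNAs, and only the siHAND2 samples stood wholly apart from siCtrl.

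**Figure D4:**
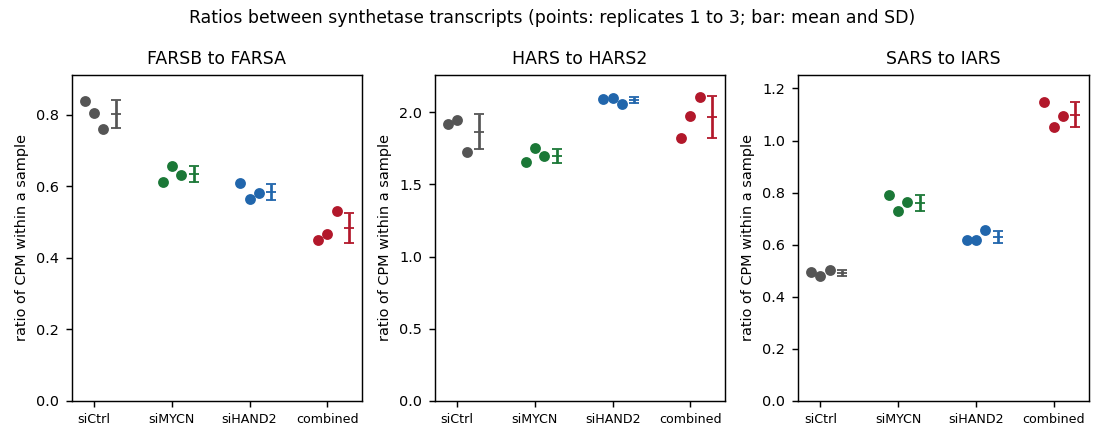
Ratios of CPM within each sample for FARSB to FARSA, HARS to HARS2 and SARS to IARS, with points for replicates 1 to 3 and a bar for the mean and SD of each group. FARSB to FARSA falls from 0.802 in siCtrl to 0.482 in the combined knockdown, and SARS to IARS rises from 0.491 to 1.10.

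By role, all 8 synthetases of the multisynthetase complex (EPRS, IARS, LARS, MARS, QARS, RARS, KARS and DARS) were among the 32 members called lower in the combined knockdown, where 50.1% of tested genes were, and all 8 were also called lower after rescaling, against 33.0% of genes. Their medians were -0.77, and -0.42 after rescaling, beside -0.74 and -0.39 over all 36 members. In siMYCN 3 of the 8 were called lower, against 16.3% of genes, and 8 after rescaling, against 22.5%. The rescaled call of KARS, the lysyl enzyme, was lost without siCtrl replicate 1, siCtrl replicate 3 or siMYCN replicate 3 (limma adjusted p = 0.059, 0.0557 and 0.11). In siHAND2 3 were called lower on either scale, a share near the 30.4% and 24.9% of all genes, with medians of -0.23 and -0.07. MARS, the methionyl enzyme of the complex, changed by -0.30 in siMYCN (limma adjusted p = 0.0707), and was called with the replicate number as a block (adjusted p = 0.0287, replicate block). MARS shares 69 bases with DDIT3 on the other strand.

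The 12 cytosolic members known as ATF4 targets (AARS, CARS, EPRS, GARS, IARS, LARS, MARS, NARS, SARS, TARS, WARS and YARS) ranged from -1.21 for IARS to -0.02 for CARS in the combined knockdown, with 10 called lower and a median of -0.70. The other 8 cytosolic members had 7 called lower and a median of -0.74. Of all tested genes 50.1% were called lower there. Rescaled, the medians were -0.34 and -0.39. Medians in siMYCN were -0.23 and -0.25, and in siHAND2 -0.22 and -0.14. The 2 structural classes of synthetase also lay close together in the combined knockdown, at -0.73 for 18 class I members and -0.75 for 17 class II members, EPRS being in neither list because its 2 catalytic domains belong to different classes. None of these differences between lists was tested.

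The members were then set beside the letters in their promoters. The 4 members with an E-box (CARS2, EARS2, IARS and MARS2) had a median change of -0.56 in siMYCN and -1.07 in the combined knockdown, against -0.22 and -0.68 for the 26 matched members without. After rescaling the medians were -0.55 and -0.72 with the motif, against -0.21 and -0.33. In siHAND2 the medians were -0.37 with the motif and -0.23 without, and -0.22 and -0.08 after rescaling. Members without a window are in neither set: DARS, LARS, VARS and YARS, called lower in siMYCN, and AARS2 and VARS2, not called there on the deposited scale. FARSB, whose change in the combined knockdown (-1.45) was close to that of EARS2 (-1.44), had no E-box letters in its window. The 8 members with CARE had a median of -0.70 in the combined knockdown and the 22 without -0.73. These are descriptions of few genes, and no difference was tested.

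A direct comparison of the single knockdowns found few members on the deposited scale. LARS, the leucyl enzyme (log2 difference siMYCN minus siHAND2 -0.35, SE 0.126, limma adjusted p = 0.0325), and MARS2, the mitochondrial methionyl enzyme (-0.35, SE 0.125, adjusted p = 0.0291), were lower in siMYCN, where 8.98% of tested genes were. FARS2 and RARS2, the mitochondrial phenylalanyl and arginyl enzymes, were higher in siMYCN (0.29, SE 0.106, adjusted p = 0.034, and 0.35, SE 0.116, adjusted p = 0.0193), as were 26.1% of genes. With the replicate number as a block, EARS2 (-0.28, adjusted p = 0.0364) and VARS, the valyl enzyme (-0.34, adjusted p = 0.0145), were also called. After rescaling 16 members were lower in siMYCN, against 22.2% of genes, and 1 higher (RARS2), against 22.4%.

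LARS illustrates the members that were lower in siMYCN than in siHAND2. It measured 257, 240.3 and 239.6 CPM in siCtrl, 173, 179 and 171 in siMYCN, 222, 236 and 210.2 in siHAND2, and 159.6, 129 and 106 in the combined knockdown. The siMYCN samples lay below all siHAND2 samples, which were all below siCtrl on this scale. Rescaled, the siHAND2 samples of LARS overlapped with siCtrl and the uncalled change from siCtrl went from -0.14 to 0.02. RARS2 measured 56.6, 54.0 and 62.1 CPM in siCtrl, 60.4, 65.2 and 61.7 in siMYCN, and 46.8, 50.4 and 48.8 in siHAND2. It is 1 of the members with no fall in siMYCN, at 109% of the siCtrl mean. The siMYCN and siHAND2 groups are separate for both genes. With single libraries left out, the deposited-scale count of 4 dropped to between 0 and 3, with 0 without siMYCN replicate 2, siMYCN replicate 3 or siHAND2 replicate 1.

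With both siRNAs most members were lower than with either alone on the deposited scale. Against siMYCN, 33 members were called lower in the combined knockdown, where 50.0% of tested genes were, and CARS, HARS and SARS were not called. Rescaled, 15 were lower, against 26.6% of genes, and 2 higher (CARS and SARS), against 30.0%. Against siHAND2, 26 members were lower, where 31.5% of genes were, with EARS2 (-0.97) and FARSB (-0.94) changing most. Rescaled, 26 were lower, against 23.6%, and 2 higher (CARS and SARS), against 26.1%. FARSB led the rescaled comparison with siMYCN (-0.53, SE 0.052, limma adjusted p = 8.2e-07), and EARS2 that with siHAND2 (-0.79, SE 0.060, adjusted p = 2.12e-07).

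Whether the 2 knockdowns add up was asked with the interaction, the combined change minus the sum of the single changes on the log2 scale. It was called in 0 of 36 members by limma, against 4.01% of tested genes, and in 0 after rescaling, against 6.14%. At an unadjusted p under 0.05 it would have been 2 and 4 members. Coefficients ranged from -0.43 for FARSA to 0.16, with a median of -0.23 beside -0.18 over all genes and a median SE of 0.176. The smallest adjusted p was 0.175, and 0.0955 after rescaling. Without combined replicate 1, 20 members had a called negative interaction on the deposited scale, but 1 (FARSA) after rescaling, so the deposited-scale count rests on that library. The share of all tested genes called in those fits is not given here.

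The partners of the synthetases were measured as a fixed list of scaffold, amidotransferase and related genes. Of 12 names 11 were listed and tested, PET112 being an older name of GATB, and 9 were called lower in the combined knockdown, 5 in siMYCN and 4 in siHAND2, beside 50.1%, 16.3% and 30.4% of all tested genes. The siHAND2 count is near its background. After rescaling 8, 6 and 2 were called lower, beside 33.0%, 22.5% and 24.9% of all tested genes, so the siHAND2 count did not exceed its background. The median in the combined knockdown went from -0.63 to -0.29. AIMP2, the scaffold at the core of the multisynthetase complex, moved furthest. It measured 38.2, 35.5 and 38.5 CPM in siCtrl, 24.2, 24.5 and 24.1 in siMYCN, 21.99, 23.4 and 21.5 in siHAND2, and 17.2, 13.4 and 12.1 in the combined knockdown (-1.35, limma, SE 0.116). All knockdown samples were below siCtrl, and the combined samples below all others. EEF1E1, another scaffold protein of the complex, changed by -0.77, AIMP1 by -0.63, and GATB, a subunit of the amidotransferase that makes mitochondrial glutaminyl-tRNA from the product of EARS2, by -0.71.

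Other genes that make, modify or use tRNA, a list of 34, had 22 members called lower after siMYCN, 17 after siHAND2 and 27 with both siRNAs, beside 16.3%, 30.4% and 50.1% of all tested genes. After rescaling the counts were 26, 16 and 27, beside 22.5%, 24.9% and 33.0%, and 3 were called higher in siHAND2 and 2 in the combined knockdown, beside 25.9% and 37.7%. EEF2, the elongation factor that moves the ribosome along, was the only one called higher on the deposited scale, in siHAND2, where 12.3% of tested genes were called higher on the deposited scale. The medians were -0.40, -0.34 and -0.77, and -0.39, -0.20 and -0.43 after rescaling. The largest changes in the combined knockdown were in PUS1 (-1.66) and PUS7 (-1.54), which make pseudouridine, and in DUS3L (-1.61), which makes dihydrouridine. PUS1 measured 15.5, 15.5 and 15.8 CPM in siCtrl and 5.17, 4.33 and 3.44 in the combined knockdown, which did not overlap.

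Genes of the amino acid and stress response, a list of 21, did not move in 1 direction. In the combined knockdown 4 were called higher (DDIT3, PPP1R15A, CHAC1 and ATF5), where 17.4% of tested genes were, and 11 lower, a share near the 50.1% of all genes. After rescaling 8 were higher and 6 lower, beside 37.7% and 33.0% of genes. In siMYCN 2 were higher and 7 lower, beside 17.4% and 16.3% of genes, and in siHAND2 2 were higher and 8 lower, beside 12.3% and 30.4%. DDIT3, which encodes the stress factor CHOP, measured 2.81, 2.58 and 3.14 CPM in siCtrl, 4.56, 4.67 and 4.12 in siMYCN, 4.34, 4.65 and 4.93 in siHAND2, and 17.3, 14.8 and 14.2 in the combined knockdown (2.10, limma, SE 0.112). PSAT1 and PHGDH, enzymes of serine synthesis and known ATF4 targets, changed by -1.50 and -1.44. ATF4 itself changed by -0.52 after siMYCN, -0.51 after siHAND2 and -0.46 with both siRNAs (limma adjusted p = 0.0036), the last being -0.10 and not called after rescaling.

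**Figure D5:**
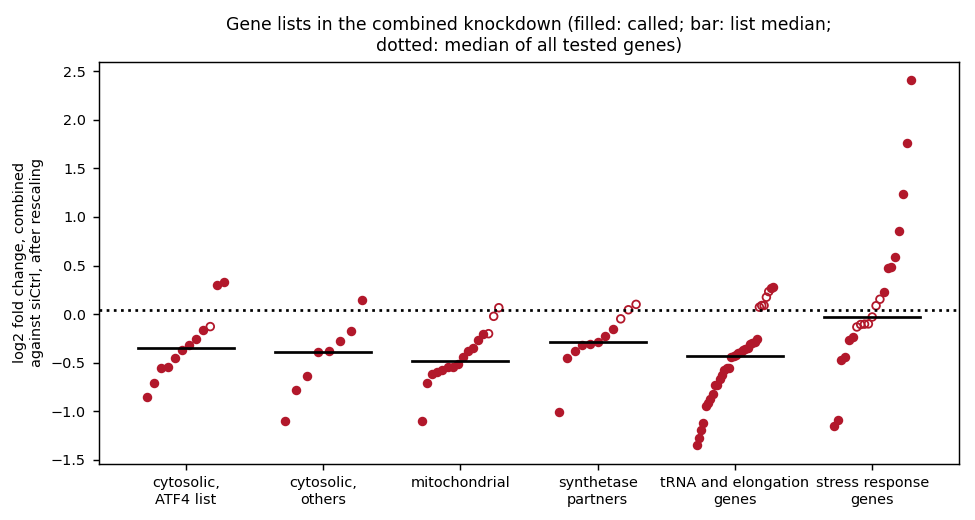
Rescaled log2 fold change of each gene between the combined knockdown and siCtrl, for 6 gene lists, with filled points for called and open points for uncalled changes, a bar for the list median and a dotted line for the median of all tested genes. The synthetase medians lie at -0.34, -0.39 and -0.48, and the stress list spreads from -1.16 to 2.41.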

How the data were processed

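The authors deposited a table of CPM values (12 samples, 27514 genes, positions in hg19), to which a constant of 0.0001 had been added. STAR 2.5.1 and Partek are named, without their roles, in the submitters' processing notes. The annotation and the use of strand are not given in the sources used here. Each sample was placed by its title. Log2(CPM + 1) of the 12680 genes averaging 1 CPM or more was fitted with limma 3.58.1 in R 4.3.3 (4 groups, eBayes with a trend, 8 residual degrees of freedom), with Benjamini-Hochberg adjustment over all of them and two-sided tests. Fold changes of low genes are understated on this scale. The fit was tested on simulated data.

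The rescaled values were divided by each sample's median ratio to the geometric means of genes averaging 5 CPM or more. Alternatives were scaling to the listed genes, a pseudocount of 0.1, no filter, a minimum of 5 CPM, only the compared groups, each sample left out, and the replicate number as a block. Deviations of same-numbered samples correlated at 0.44, 0.15 and 0.31 between siCtrl and siMYCN. They correlated at 0.33, 0.14 and 0.32 between siMYCN and siHAND2, and not all above 0.1 elsewhere. Between siCtrl and siHAND2 they were 0.32, -0.07 and 0.42. The column names number the libraries replicate by replicate, but the labels do not state a pairing. These values do not settle whether the replicate numbers pair samples across the groups. The main fit of every contrast used no block all the same, and the block was an alternative fitted over all 4 groups. Replicates differed by more than sampling noise.

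The members and lists were chosen with earlier results of these data known. The genes given by sample are, per knockdown, the 4 largest rises and the 4 largest falls among called members, with SARS, CARS, LARS, RARS2 and the ratios added after their values were seen, and each other list is shown by its counts and its 3 largest changes. The result of 1 other marker list is not reported here.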

Additional observations from a re-analysis of the deposited data

Results flagged for a closer look

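The interaction of the knockdowns was called for 2 genes of the stress response list, and for 4.01% of all tested genes. In these 2 the combined change differed from the sum of the single changes on the deposited scale. For DDIT3 the interaction was 1.04 on the log2 scale (SE 0.159, limma), with all 3 combined samples above every other sample. For SLC7A11, the cystine transporter, it was 0.87 (SE 0.196, limma adjusted p = 0.0111). SLC7A11 averaged 4.18 CPM in the controls, 2.52 after siMYCN, 2.64 after siHAND2 and 3.52 with both siRNAs, and its combined samples overlapped with siCtrl. DDIT3 shares 69 bases with MARS on the other strand, so that part of their reads cannot be told apart without strand. No synthetase gene had a called interaction in the fit of all 12 samples.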

How the results depend on the processing

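For siMYCN against siCtrl the 13 called members became 24 when rescaled, 22 when scaled to the listed genes, 8 without a filter, 27 when rescaled with a replicate block and 28 with only the compared groups. For siHAND2 against siCtrl the 15 became 9 without a filter and 24 with only the compared groups. For the combined knockdown against siMYCN the 33 became 17 when rescaled and 20 with the block as well. For siMYCN against siHAND2 the 4 became 17, 11 and 2 when rescaled, scaled to the listed genes and unfiltered, 17 when rescaled with the block and 14 with only the compared groups. The replicate block alone gave 14, 18, 33, 33, 28, 6 and 0 calls for the 7 contrasts. Of these alternatives, only the rescaled one has the share of all tested genes called given above. The other counts do not show whether the members moved more than other genes. Except with only the compared groups, the fits share the spread of each gene over all 4 groups, the combined samples included. The deposited-scale SD as a percentage of the mean had a median over the members of 3.4% in siCtrl and 20.3% in the combined knockdown. After rescaling this median was 6.02% in the combined knockdown. The cause of the shifts in these counts was not tested.

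Direction turned for few members that were called on either scale, and no member was called in both directions. In the contrasts below, CARS, HARS and SARS were called only under the alternative scaling, and NARS and QARS only on the deposited scale. Combined minus siCtrl became 0.33 for CARS, 0.14 for HARS and 0.30 for SARS when rescaled, with or without the block, and 0.32 for CARS and 0.29 for SARS when scaled to the listed genes. Combined minus siMYCN became 0.016 for NARS, 0.053 for QARS and 0.29 for SARS when rescaled, and 0.22 for SARS when scaled to the listed genes. Combined minus siHAND2 became 0.18 and 0.20 for SARS under these scalings.

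With each library left out, counts on the deposited scale ran from 9 to 10 for siMYCN, 10 to 15 for siHAND2, 32 to 35 for the combined knockdown, 30 to 35 against siMYCN, 23 to 33 against siHAND2, 0 to 3 for siMYCN against siHAND2 and 0 to 20 for the interaction. Rescaled, they ran from 22 to 24, 13 to 15, 30 to 32, 14 to 20, 25 to 28, 13 to 16 and 0 to 1. The share of all tested genes called in each of these fits is not given here, so the counts have no background. Deposited-scale calls lost at least once were NARS, NARS2, WARS2, YARS and YARS2 in siMYCN, of which NARS and YARS were lost in all 6 fits, and CARS2, FARS2, IARS, PARS2 and TARS in siHAND2. The 32 deposited-scale calls of the combined knockdown were kept in every such fit, and of its rescaled calls GARS, HARS, VARS2 and WARS were each lost at least once. Rescaled calls lost were AARS2, CARS2 and KARS in siMYCN and CARS2 and SARS2 in siHAND2. Changes that were not called switched sign in 33 cases over the 7 contrasts when rescaled and in 23 when scaled to the listed genes.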
